A study of Mus musculus with 12 samples.

Results

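Type I interferon-stimulated genes are the genes that cells switch on in response to interferon α and β. A list of 45 such genes, given by symbol, was looked up among the 18992 gene identifiers of the deposited tables, and all 45 were found in all 3 tables. The cells were PD-1+CD44+CD8+ T cells, that is CD8 T cells sorted for the checkpoint receptor PD-1 and the activation marker CD44, from the NZB/W F1 strain, the hybrid of NZB with NZW mice in which lupus nephritis develops with age. The 3 groups were spleen of mice aged 12 weeks (12W spleen), spleen of mice aged 28 weeks (28W spleen) and kidney of mice aged 28 weeks (28W kidney), and no treatment is given in the labels for any of the 3 groups. Each group was deposited as 1 table that pools its 4 labelled samples with no map from cells to samples, so each group is 1 library without a replicate, and the number of mice behind it is not stated. The titles of the 28W spleen samples disagree with their age label (12 weeks), and groups follow the titles.

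In the canonical pathway, type I interferon binds the receptor made of IFNAR1 and IFNAR2, and the kinases JAK1 and TYK2 then activate the transcription factor complex ISGF3, of which STAT2 and IRF9 are parts. It binds the interferon-stimulated response element (ISRE) in the promoters of target genes. Interferon γ signals instead to gamma-activated sites (GAS), and many of the 45 genes respond to it as well. A raised expression of these genes in blood cells is a well-known feature of lupus.

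The ISRE core, searched on both strands as a pair of GAAA boxes with any 2 bases between them, was present in the promoter window of 18 of the 34 genes of the list that had a RefSeq promoter entry (52.9%). The window runs from 250 bases before to 50 bases after the transcription start in GRCm38.p6. Among 17492 protein-coding genes, 3.94% carried the same letters. The GAS letters TTCNNNGAA were found for 8 of the 34 genes (23.5%), against 8.92% of all protein-coding genes. The 11 genes without an entry were *Oas2*, *Usp18*, *Dhx58*, *Zbp1*, *Mx1*, *Parp9*, *Parp14*, *Ly6a*, *Ly6e*, *Ifi27l2a* and *Rtp4*. 6 windows with a match are printed 5′ to 3′ on the strand of the gene, with the ISRE core in capitals (TTTC boxes where it lies on the other strand). *Isg15* on the minus strand (chr4:156200769-156201068) and *Oas1a* on the minus strand (chr5:120907476-120907775) are shown because their cores are repeated and overlap, starting 78, 72 and 66 bases upstream in *Isg15* and 20 and 14 bases upstream in *Oas1a*.
Isg15: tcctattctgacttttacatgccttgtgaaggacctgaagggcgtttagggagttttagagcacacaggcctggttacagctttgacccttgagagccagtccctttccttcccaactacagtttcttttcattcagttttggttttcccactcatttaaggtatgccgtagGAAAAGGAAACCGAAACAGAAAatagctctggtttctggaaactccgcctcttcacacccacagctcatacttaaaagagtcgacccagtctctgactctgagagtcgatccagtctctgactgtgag
Oas1a: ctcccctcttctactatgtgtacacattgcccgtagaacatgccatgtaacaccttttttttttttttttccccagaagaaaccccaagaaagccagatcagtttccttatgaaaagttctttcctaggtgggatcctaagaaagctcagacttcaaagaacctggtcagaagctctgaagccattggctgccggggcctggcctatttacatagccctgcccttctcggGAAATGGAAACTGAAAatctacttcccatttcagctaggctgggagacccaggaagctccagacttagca
*Ifit3* (chr19:34583279-34583578, plus strand) and *Ifit3b* (chr19:34607707-34608006, plus strand) are neighbours whose reads are hard to separate, and both windows hold a pair of cores whose starts lie 34 bases apart.
Ifit3: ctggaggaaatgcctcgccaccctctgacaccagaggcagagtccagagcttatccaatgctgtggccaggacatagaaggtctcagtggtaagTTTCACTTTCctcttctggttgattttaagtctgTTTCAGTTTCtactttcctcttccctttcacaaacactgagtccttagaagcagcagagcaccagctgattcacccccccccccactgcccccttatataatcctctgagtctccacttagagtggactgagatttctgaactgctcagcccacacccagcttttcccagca
Ifit3b: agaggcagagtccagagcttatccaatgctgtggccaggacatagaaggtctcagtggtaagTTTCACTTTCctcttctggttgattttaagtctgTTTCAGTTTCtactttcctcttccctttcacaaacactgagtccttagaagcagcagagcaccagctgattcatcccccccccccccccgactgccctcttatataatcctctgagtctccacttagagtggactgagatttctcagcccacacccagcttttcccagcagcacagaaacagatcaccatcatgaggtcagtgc
*Rsad2* (chr12:26456403-26456702, minus strand) and *Ifitm3* (chr7:141010695-141010994, minus strand) are shown because their highest cluster in 28W spleen carried markers of other cells, as described further on. The core of *Rsad2* starts 120 bases upstream, whereas those of *Ifitm3* start 2 and 19 bases downstream of the start site.
Rsad2: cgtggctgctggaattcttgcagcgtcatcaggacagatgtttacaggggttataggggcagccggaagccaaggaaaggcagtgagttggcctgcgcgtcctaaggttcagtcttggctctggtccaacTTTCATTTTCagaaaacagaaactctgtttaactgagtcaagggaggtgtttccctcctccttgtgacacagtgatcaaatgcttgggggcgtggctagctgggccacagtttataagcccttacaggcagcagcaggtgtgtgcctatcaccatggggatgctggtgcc
Ifitm3: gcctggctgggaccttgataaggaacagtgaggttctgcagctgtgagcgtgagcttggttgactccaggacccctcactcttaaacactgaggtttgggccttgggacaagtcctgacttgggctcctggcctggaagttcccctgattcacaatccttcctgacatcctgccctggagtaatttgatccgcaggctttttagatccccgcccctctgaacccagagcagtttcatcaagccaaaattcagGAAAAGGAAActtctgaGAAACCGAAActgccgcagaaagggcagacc
A match is a description of the letters in the window and not evidence of binding.

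Several of the genes are neighbours in GRCm38. *Ifit2*, *Ifit3*, *Ifit3b* and *Ifit1* lie in a row on chromosome 19 between positions 34550694 and 34650009. *Oas2*, *Oas3* and *Oas1a* lie on chromosome 5 between 120730333 and 120907521, *Slfn5*, *Slfn8* and *Slfn1* on chromosome 11 between 82951349 and 83122670, and *Rsad2* and *Cmpk2* on chromosome 12, 12752 bases apart. Some of these genes have near copies, which the counting could have split or lost. Over the aligned bases of the longest open reading frames, *Ifit3* and *Ifit3b* were 99.1% identical, *Oas1a* and *Oas1g* 96.7%, and *Phf11b* and *Phf11a* 97.0%. Identity was 92.7% between *Slfn8* and *Slfn9* and 90.2% between *Trim30a* and *Trim30d*. For *Ifi27l2a* and *Ifi27l2b* it was 90.8% over 273 aligned bases, with frames of 273 and 852 bases. The values of these genes are therefore uncertain, and how far reads were split between copies was not measured. The genes *Dtx3l* and *Parp9* overlap by 682 bases on opposite strands, *Irf9* overlaps *Rnf31* by 123 bases on the same strand, and *Rtp4* and *Irf7* each overlap a gene on the other strand.

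The libraries held 6894 cells in 10 clusters (12W spleen), 6481 cells in 11 clusters (28W spleen) and 7135 cells in 12 clusters (28W kidney), with 29937384 to 34742303 unique molecular identifiers (UMIs, counted transcripts) each. Levels are counts per 1000000 UMIs (CPM), summed over all cells of a library or cluster, and 3 UMIs correspond to 0.0864, 0.0937 and 0.100 CPM in the same order. Intervals are 95% exact intervals that cover counting error only, not differences between mice or preparations, and no p-value is given. Between 52 and 66 cell barcodes were shared by each pair of libraries. Among genes of the sort markers, *Cd8a* was at 591, 488 and 738 CPM and *Pdcd1*, which encodes PD-1, at 36.6, 34.7 and 115 CPM in the same order. *Pdcd1* was only at 7.26 and 5.36 CPM in clusters 4 and 6 of 12W spleen. No unsorted library was at hand for comparison. Some clusters carried markers of other cells at 10 or more times the median cluster of their library. In the spleens these were cluster 3 of 12W spleen and cluster 8 of 28W spleen (myeloid and erythroid markers) and cluster 10 of 28W spleen (B cell, myeloid and plasmacytoid dendritic cell markers). In 28W kidney they were clusters 2 (kidney tubule and erythroid), 7 (kidney tubule), 8 (B cell), 11 (erythroid) and 12 (myeloid). In cluster 10 of 28W spleen and cluster 12 of 28W kidney, *Cd3e* was at 260 and 358 CPM, against 1047 and 1306 CPM in their whole libraries. In a sum over cells, fewer cells expressing a gene and less RNA per cell cannot be told apart.

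The age comparison asked how the cells of the spleen differ between 12 and 28 weeks. All 45 interferon-stimulated genes were higher in 28W spleen than in 12W spleen, and the interval of the ratio lay above 1 for all 45. Across all 12412 genes with at least 20 UMIs in the 2 spleens together, 18.3% had an interval above 1 and 36.5% an interval below 1. The median log2 ratio of the 45 genes, with 1 CPM added to both levels, was 0.93, with a range of 0.35 for *Ifi35* to 2.1 for *Oas1a*, while the median of all genes tested was -0.08. Of the 45 genes, 21 were at least 2-fold higher and 0 at least 2-fold lower, against 4.93% and 3.5% of all genes tested. With 10 CPM added to both levels, which damps the ratios of low genes, the count at least 2-fold higher was 7, against 0.596% of all genes. Together the 45 genes made up 0.404% of all UMIs in the 12W spleen, 0.780% in the 28W spleen and 1.06% in the kidney. *Ly6a*, *Ly6e* and *Ifi27l2a* alone held 58.8% to 65.1% of these UMIs, so summed levels mostly describe 3 genes, and the text below rests on the values per gene. Leaving out the clusters with B cell, myeloid or kidney tubule markers, all 45 intervals of the age ratio stayed above 1. Without the cluster of highest interferon-stimulated gene level in each library the median log2 ratio was 0.76, and 45 of 45 genes were still higher.

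The organ comparison asked how cells in the kidney differ from those in the spleen at the same age. It uses the same 28W spleen library as the age comparison, so the ratios of both are not independent. The median log2 ratio of the 45 genes was 0.29 in favour of the kidney, against 0.11 for all 13189 genes tested. Of the 45 genes, 1 was at least 2-fold higher (*Ifitm3*) and 0 at least 2-fold lower, against 15.3% and 2.91% of all genes tested. The count at least 2-fold higher was 6 without the clusters marked by B cell, myeloid, tubule or erythroid genes (5.29% of all genes) and 5 without the cluster of highest interferon-stimulated gene level in each library (15.2%). The median log2 ratio was 0.48 without those marked clusters, 0.18 with scaling by the median gene ratio and 0.12 with genes of the T cell receptor, mitochondria and ribosomal proteins left out of the library total. The interval of the ratio lay above 1 for 32 genes, below 1 for 8 and across 1 for 5, against 42.1% above and 18.8% below among all genes tested. By point value 35 of 45 genes were higher in kidney, and this split depended on the scaling. It was 29 of 45 under the first of these scalings and 26 of 45 under the second.

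**Figure D1:**
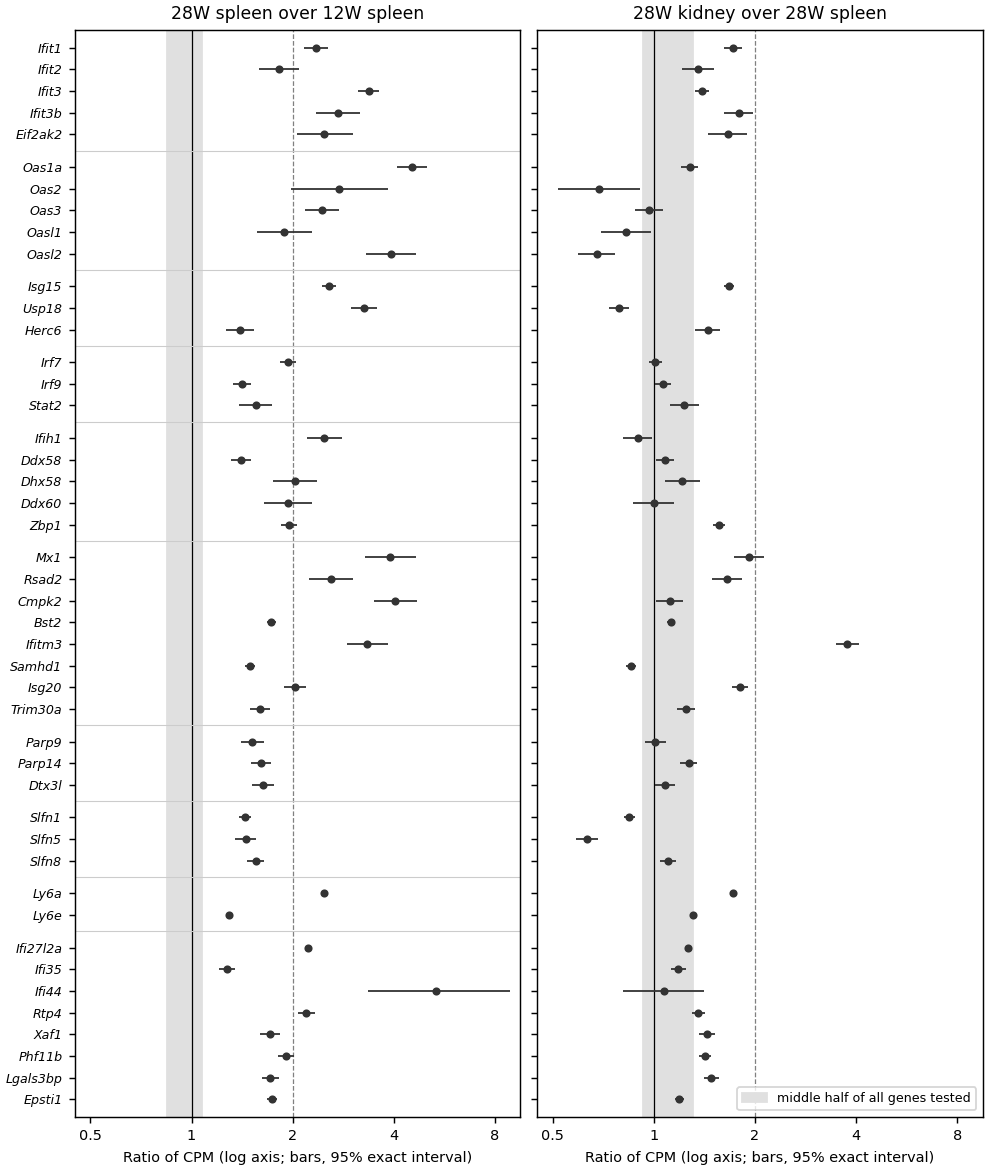
Ratio of CPM of each of the 45 genes (rows, grouped by role) for 28W spleen over 12W spleen (left) and 28W kidney over 28W spleen (right) on a log axis, with 95% exact intervals, the middle range (quartiles) of all genes tested in grey and a dashed line at 2-fold. All 45 intervals on the left lie above 1, while 8 on the right lie below 1 and *Ifitm3* stands alone above 2.

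The IFIT proteins bind viral RNA and block its translation. *Ifit1* was at 23.8 CPM in the 12W spleen, 55.7 in the 28W spleen and 95.6 in the kidney. *Ifit3* was at 28.3, 95.3 and 132 CPM, and its near copy *Ifit3b* at 7.34, 19.99 and 35.7 CPM. All 3 genes followed the same order of libraries with intervals apart at each step. The age ratio of *Ifit3* was 3.37 (3.13 to 3.62) and its organ ratio 1.39 (1.33 to 1.46), and those of *Ifit3b* were 2.72 (2.35 to 3.16) and 1.79 (1.62 to 1.98). *Ifit2* had the smallest age ratio of this group, 1.83 (1.59 to 2.09), from 9.79 to 17.9 CPM, and was at 24.2 CPM in kidney. *Eif2ak2*, which encodes the kinase PKR that halts translation on double-stranded RNA, was at 4.55, 11.3 and 18.7 CPM. In this group 4 of 5 genes were at least 2-fold higher with age, against 4.93% of all genes tested. The organ interval of all 5 lay above 1, against 42.1% of all genes tested.

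The oligoadenylate synthetases sense double-stranded RNA and make the messenger that activates RNase L. *Oas1a* was at 13.4 CPM in the 12W spleen, 60.8 in the 28W spleen and 77.6 in the kidney. Its age ratio of 4.52 (4.08 to 5.01) gave the highest log2 ratio of the list with 1 CPM added, although the plain ratio of *Ifi44* was larger, and 9 of the 11 clusters of 28W spleen lay above every cluster of 12W spleen. *Oas3* was at 11.6, 28.4 and 27.5 CPM, and *Oasl2*, a related protein, at 5.01, 19.6 and 13.3 CPM. *Oas2* had few UMIs, with 1.53, 4.18 and 2.87 CPM, and *Oasl1*, which restrains IRF7 translation, was at 5.12, 9.65 and 7.98 CPM. This family was higher with age in all 5 genes (4 at least 2-fold, against 4.93% of all genes tested) but not higher in kidney as a group. The organ ratio was 0.687 (0.517 to 0.907) for *Oas2*, 0.675 (0.594 to 0.767) for *Oasl2* and 0.827 (0.696 to 0.983) for *Oasl1*, all below 1, spanned 1 for *Oas3* and lay above 1 for *Oas1a* (1.28, 1.2 to 1.36). *Oasl1* was also the single gene of the 45 whose median cluster was not higher with age (log2 difference -0.08). Its median cluster was at 4.73 CPM in 28W spleen and 5.08 CPM in 12W spleen, and its highest 28W spleen level, 30.4 CPM, was in the B cell marked cluster 10.

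*Isg15* encodes a ubiquitin-like protein that is joined to other proteins, *Herc6* the ligase for it in mice and *Usp18* the protease that removes it and also dampens the interferon receptor. *Isg15* was at 66.5 CPM in the 12W spleen, 171 in the 28W spleen and 286 in the kidney. *Usp18* was at 19.6, 64.0 and 50.4 CPM, and *Herc6* at 20.9, 29.1 and 42.1 CPM. The modifier and its protease thus differed in opposite directions between 28W spleen and kidney. The organ ratio was 1.68 (1.62 to 1.73) for *Isg15* and 0.788 (0.737 to 0.843) for *Usp18*, while their age ratios were 2.57 (2.44 to 2.70) and 3.26 (2.99 to 3.56).

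Of the transcription factors, *Irf7* drives the later wave of interferon production, and *Stat2* and *Irf9* encode parts of ISGF3. *Irf7* was at 60.7, 118 and 119 CPM in the libraries taken in the same order, *Irf9* at 52.6, 74.3 and 79.1 CPM and *Stat2* at 15.1, 23.4 and 28.8 CPM. None of the 3 was 2-fold higher with age by point value, against 4.93% of all genes tested. The level of *Irf7* was nevertheless higher in 10 of 11 clusters of 28W spleen than in every cluster of 12W spleen, and its organ ratio of 1.01 (0.964 to 1.06) spanned 1.

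The nucleic acid sensors include MDA5 (*Ifih1*) and RIG-I (*Ddx58*), which detect viral RNA, their relatives *Dhx58* and *Ddx60*, and *Zbp1*, a sensor of left-handed nucleic acid. *Ifih1* was at 11.5 CPM in the 12W spleen, 28.5 in the 28W spleen and 25.5 in the kidney. *Ddx58* was at 43.5, 61.0 and 65.8 CPM, and *Zbp1* at 57.3, 112 and 174 CPM. With age *Ifih1* had the largest ratio of this group, 2.48 (2.20 to 2.80), and *Ddx58* the smallest, 1.40 (1.31 to 1.5). In the organ comparison *Zbp1* had the largest ratio, 1.56 (1.49 to 1.63), and *Ifih1* the smallest, 0.894 (0.811 to 0.985), although the interval of *Ifih1* spanned 1 without the clusters with markers of other cells.

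Among genes that restrict viral entry, replication or release, *Mx1* encodes a dynamin-like GTPase, *Cmpk2* a mitochondrial nucleotide kinase and *Rsad2* viperin. *Mx1* was at 4.81 CPM in the 12W spleen, 18.7 in the 28W spleen and 35.9 in the kidney. *Cmpk2* was at 6.85, 27.7 and 30.9 CPM, and *Rsad2*, its neighbour on chromosome 12, at 7.17, 18.7 and 30.8 CPM. The age ratios of *Cmpk2* and *Mx1* were 4.04 (3.5 to 4.69) and 3.90 (3.28 to 4.66). *Rsad2* had a smaller one, 2.61 (2.24 to 3.03), which became 4.46 (3.66 to 5.46) without the clusters with B cell, myeloid or kidney tubule markers. Its highest cluster in each spleen library was the one with myeloid and erythroid markers (54.6 CPM in cluster 3 and 149 CPM in cluster 8). The part of those cells in the *Rsad2* values was not tested further. *Bst2*, which encodes the tether of budding virions, was at 174, 300 and 338 CPM, and *Isg20*, an exonuclease, at 31.1, 63.2 and 114 CPM. *Samhd1*, which encodes a phosphohydrolase that lowers the cell's dNTPs, was at 171, 256 and 218 CPM and thus lower in kidney than in 28W spleen, by a ratio of 0.854 (0.827 to 0.882). *Trim30a* was at 40.0, 63.9 and 79.6 CPM.

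*Ifitm3*, which encodes a membrane protein that blocks virus entry, was at 7.48 CPM in the 12W spleen, 24.9 in the 28W spleen and 93.6 in the kidney. Its organ ratio of 3.75 (3.47 to 4.07) was the largest of the list. Most of that level came from 1 cluster, since 69.2% of its kidney UMIs lay in cluster 12, where it reached 1867 CPM against a median cluster of 26.6 CPM. Cluster 12 held 2.58% of kidney cells and a summed level of 10020 CPM for the 6 myeloid markers (*Lyz2*, *Csf1r*, *C1qa*, *C1qb*, *C1qc* and *Adgre1*), which were detected in all 3 libraries at sums of 31.3, 49.4 and 360 CPM. In 28W spleen the highest *Ifitm3* level, 325 CPM, was in cluster 10 with B cell and myeloid markers. Without the clusters marked by B cell, myeloid or tubule genes, *Ifitm3* was at 16.5 CPM in 28W spleen and 23.5 CPM in 28W kidney, a ratio of 1.42 (1.26 to 1.61), and its age ratio was 3.0 (2.52 to 3.57). The 2-fold organ difference of *Ifitm3* was therefore not seen outside those clusters.

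**Figure D2:**
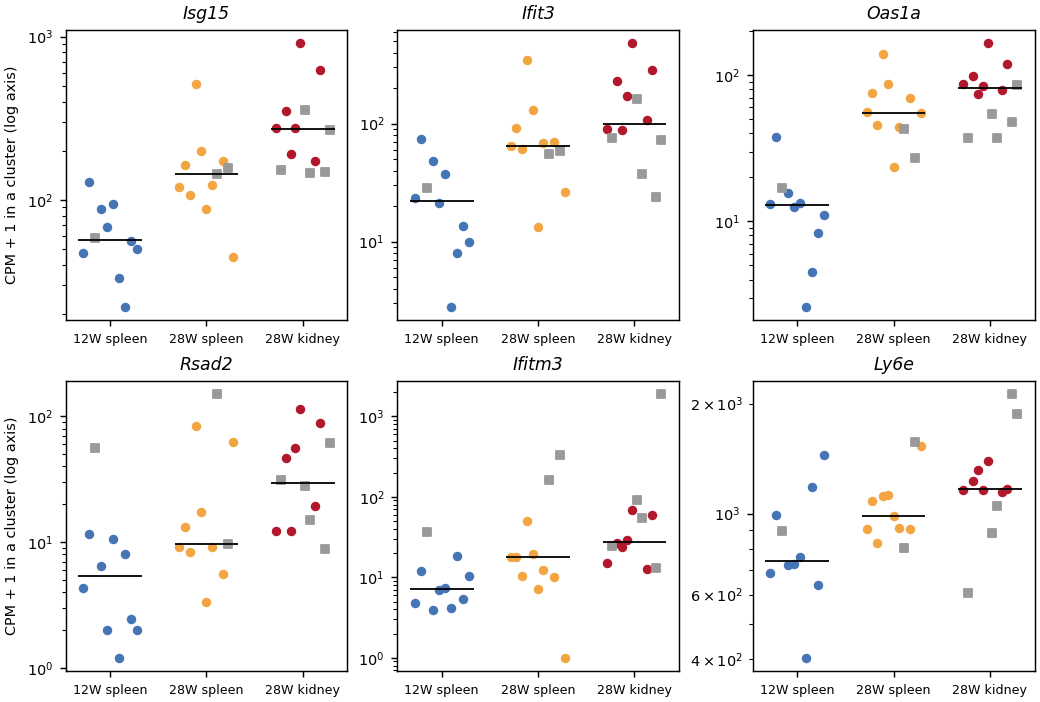
Level of 6 genes in every cluster of the 3 libraries, as CPM + 1 on a log axis, with clusters that carry B cell, myeloid, tubule or erythroid markers as grey squares and the median cluster as a line. *Isg15*, *Ifit3* and *Oas1a* reach their highest kidney and 28W spleen levels in unmarked clusters. *Ifitm3* and *Ly6e* reach theirs in marked clusters in both libraries, and *Rsad2* does so in 28W spleen.

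The ADP-ribosylation and schlafen groups held 0 genes at least 2-fold higher with age, against 4.93% of all genes tested. With so few genes, a count of 0 lies near that share. *Parp9*, *Parp14* and *Dtx3l*, which act in ADP-ribosylation and ubiquitination, had age ratios of 1.52 (1.40 to 1.64), 1.61 (1.5 to 1.72) and 1.63 (1.51 to 1.76). Schlafen genes, a family tied to T cell quiescence, had age ratios of 1.44 (1.39 to 1.5) for *Slfn1*, 1.45 (1.35 to 1.55) for *Slfn5* and 1.55 (1.46 to 1.65) for *Slfn8*. The schlafen genes were not higher in kidney as a group. *Slfn5* was at 40.2 CPM in the 12W spleen, 58.3 in the 28W spleen and 36.8 in the kidney, so its kidney level was the lowest of the 3, with an organ ratio of 0.631 (0.585 to 0.680), the smallest of the list. *Slfn1* was at 127, 184 and 155 CPM and *Slfn8* at 55.2, 85.7 and 94.5 CPM.

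*Ly6a* (Sca-1) and *Ly6e* encode surface proteins anchored by lipid. *Ly6a* was at 749 CPM in the 12W spleen, 1861 in the 28W spleen and 3204 in the kidney. *Ly6e* was at 774, 1002 and 1314 CPM. Although they lie 34972 bases apart on chromosome 15, the pair differed, with an age ratio of 2.49 (2.45 to 2.52) for *Ly6a* and 1.29 (1.27 to 1.32) for *Ly6e*. *Ly6e* was highest in the clusters with the most proliferation transcripts in 12W spleen (1445 CPM in cluster 10) and 28W kidney (2117 CPM in cluster 11), where most other genes of the list were low. In 28W spleen it was instead highest in the B cell marked cluster 10 (1573 CPM), and the cluster with the most proliferation transcripts, cluster 6, was at 986 CPM. *Ifi27l2a*, which encodes a small membrane protein, was at 853, 1900 and 2403 CPM.

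Among the other interferon-induced genes, *Ifi44* was the rarest, with 22 UMIs (0.633 CPM) in the 12W spleen, 3.37 CPM in the 28W spleen and 3.61 CPM in the kidney. Its age ratio of 5.33 was the largest ratio of the list, yet with a wide interval of 3.34 to 8.85 that holds the ratio of *Oas1a*. *Ifi35* was at the other end, at 71.4, 91.2 and 108 CPM with an age ratio of 1.28 (1.21 to 1.35). *Rtp4*, a chaperone gene, was at 46.3, 102 and 138 CPM, and *Epsti1* at 158, 273 and 325 CPM. *Lgals3bp* had the largest organ ratio of this group, 1.48 (1.41 to 1.56), with levels of 51.8, 88.9 and 132 CPM. *Xaf1* and *Phf11b* had age ratios of 1.71 (1.60 to 1.83) and 1.91 (1.81 to 2.02) and organ ratios of 1.44 (1.36 to 1.52) and 1.42 (1.36 to 1.48).

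**Figure D3:**
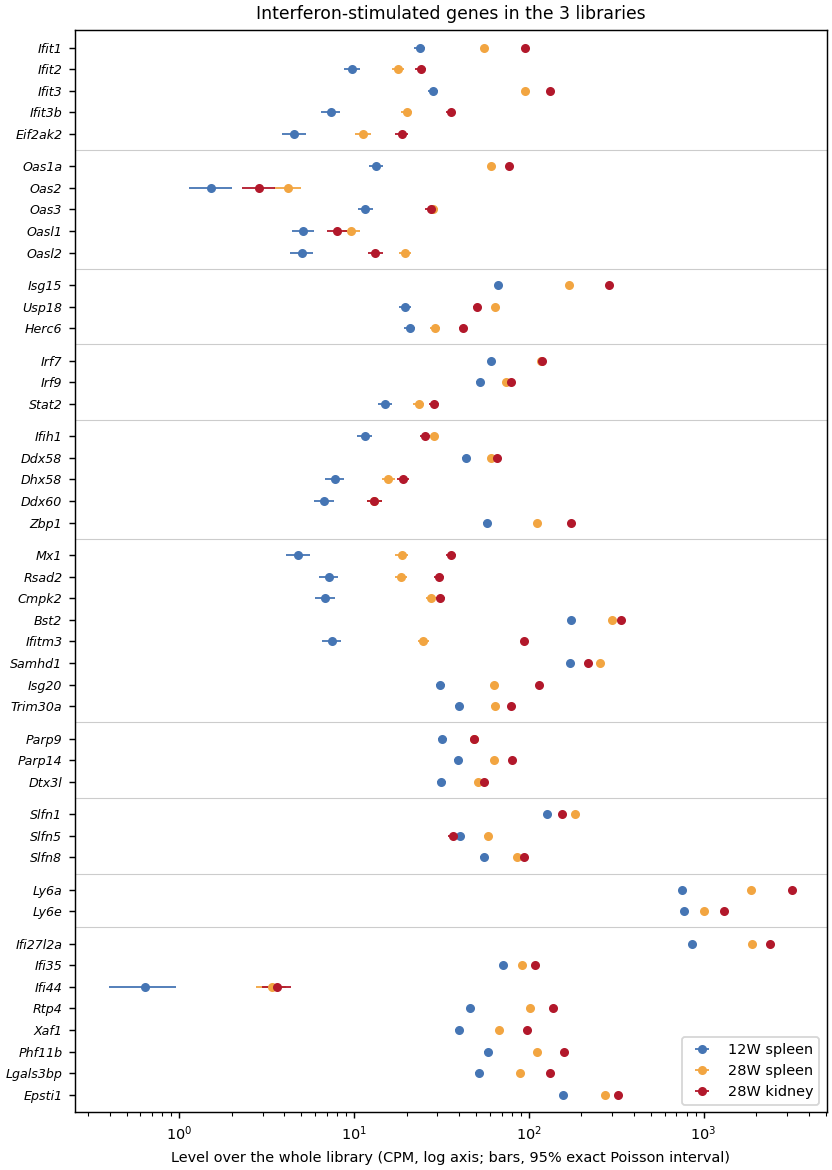
Level of each of the 45 genes in the 3 libraries in CPM on a log axis, with 95% exact Poisson intervals and genes grouped by role. For every gene the 12W spleen point lies left of the 28W spleen point, and the kidney point lies left of the 28W spleen point for genes such as *Oas2*, *Oasl2*, *Usp18* and *Slfn5*.

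The 18 genes with an ISRE core in the promoter window had a median log2 age ratio of 1.17 and a median log2 organ ratio of 0.33. The 16 genes with an entry but no core had medians of 0.78 and 0.13. Both sets overlapped widely, with age ratios from 0.48 (*Ddx58*) to 2.1 (*Oas1a*) on the log2 scale with a core and from 0.35 (*Ifi35*) to 1.87 (*Cmpk2*) without one.

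The level of the list as a whole in a cluster was taken as the mean of log2(CPM + 1) over the 45 genes. The authors made the clusters within each library from the same cells and genes, and their study names 1 cluster type after interferon-stimulated genes, so a cluster that stands out is a description and not a test. In 12W spleen the level ran from 2.96 in cluster 7 to 5.58 in cluster 2, with a median cluster of 4.93. The 28W spleen ran from 4.67 (cluster 6) to 7.01 (cluster 4) and the kidney from 5.03 (cluster 8) to 7.27 (cluster 6). The highest cluster lay 0.66 above the median of the other clusters in the 12W spleen, 1.44 in the 28W spleen and 1.37 in the kidney. Of the 11 clusters of 28W spleen, 6 lay above the highest cluster of 12W spleen, and so did 10 of the 12 kidney clusters. The median cluster was higher in 28W spleen for 44 of 45 genes, against 37.6% of all genes tested. For 41 of 45 genes at least 1 cluster of 28W spleen lay above all clusters of 12W spleen, against 40.2% of all genes tested, the exceptions being *Herc6*, *Stat2*, *Ddx58* and *Slfn8*. Between kidney and 28W spleen the median cluster was higher in kidney for 38 of 45 genes, against 55.6% of all genes tested, and 34 had a kidney cluster above all clusters of 28W spleen, against 49.9%.

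**Figure D4:**
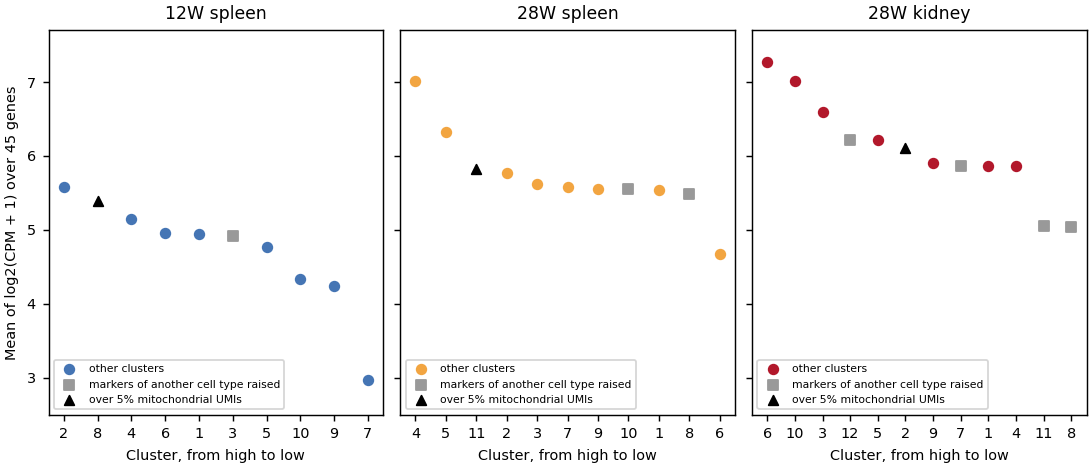
Mean of log2(CPM + 1) over the 45 genes in each cluster (points, ordered from high to low) of the 3 libraries, with clusters that carry markers of other cells as grey squares and clusters with over 5% mitochondrial UMIs as triangles. Cluster 4 of 28W spleen (7.01) and clusters 6 (7.27) and 10 (7.01) of 28W kidney stand above the rest, and cluster 7 of 12W spleen (2.96) stands below.

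Cluster 4 of 28W spleen held 13.2% of the cells, 11.1% of the UMIs and 18.7% of the UMIs of the 45 genes. It was the highest cluster for 32 of the 45 genes, whereas 1.46% of 11477 genes peaked there. *Ifit3* reached 345 CPM in it against a median cluster of 63.8 CPM, *Isg15* 513 against 143 CPM and *Cmpk2* 93.2 against 20.3 CPM. Cluster 5 came next at 6.33.

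Cluster 6 of 28W kidney held 8.47% of the cells and 11.6% of the UMIs of the 45 genes, and it was likewise the highest cluster for 32 of the 45 genes, against 3.77% of 12444 genes. *Isg15* reached 908 CPM there against a median cluster of 270 CPM, *Ifit3* 478 against 98.3 CPM and *Ifit1* 310 against 83.2 CPM. The same cluster had the highest *Pdcd1* (229 CPM), *Cd8a* (1114 CPM), *Cd3e* (1848 CPM), *Gzmk* (902 CPM) and *Ccl5* (15923 CPM) levels of the kidney library. Cluster 10 had a level of 7.01 and was highest for 6 genes, a share near the 11.7% of all genes that peaked there. They were *Oasl2* (63.3 CPM), *Mx1* (85.2 CPM), *Ifi44* (20.7 CPM), *Stat2*, *Trim30a* and *Ifi27l2a*. The lowest kidney levels were in the B cell marked cluster 8 (lowest for 19 genes, against 14.2% of all genes) and in cluster 11 (lowest for 13, against 8.03%), which had the most proliferation transcripts.

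In 12W spleen the peak was shallower and shared. Cluster 2 was highest for 17 genes, among them *Ifit1* (50.8 CPM), *Ifit3* (72.8 CPM), *Isg15* (127 CPM) and *Oas1a* (36.9 CPM), against 5.34% of 11507 genes. Cluster 8 was highest for 20 genes, but 50.3% of all genes peaked in that cluster, which had 8.98% mitochondrial UMIs and 0.820% of the library's UMIs. Among the 20 were *Herc6*, *Stat2*, *Ddx58*, *Ddx60*, *Parp9*, *Parp14*, *Slfn8* and *Lgals3bp*. These are also the 8 of the 45 genes that peaked in cluster 11 of 28W spleen. That cluster had 6.64% mitochondrial UMIs, and 45.2% of all genes peaked in it. The lowest level was in cluster 7 for 39 of 45 genes, against 25.3% of all genes, with *Ifit3* at 1.80 and *Oas1a* at 1.60 CPM.

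**Figure D5:**
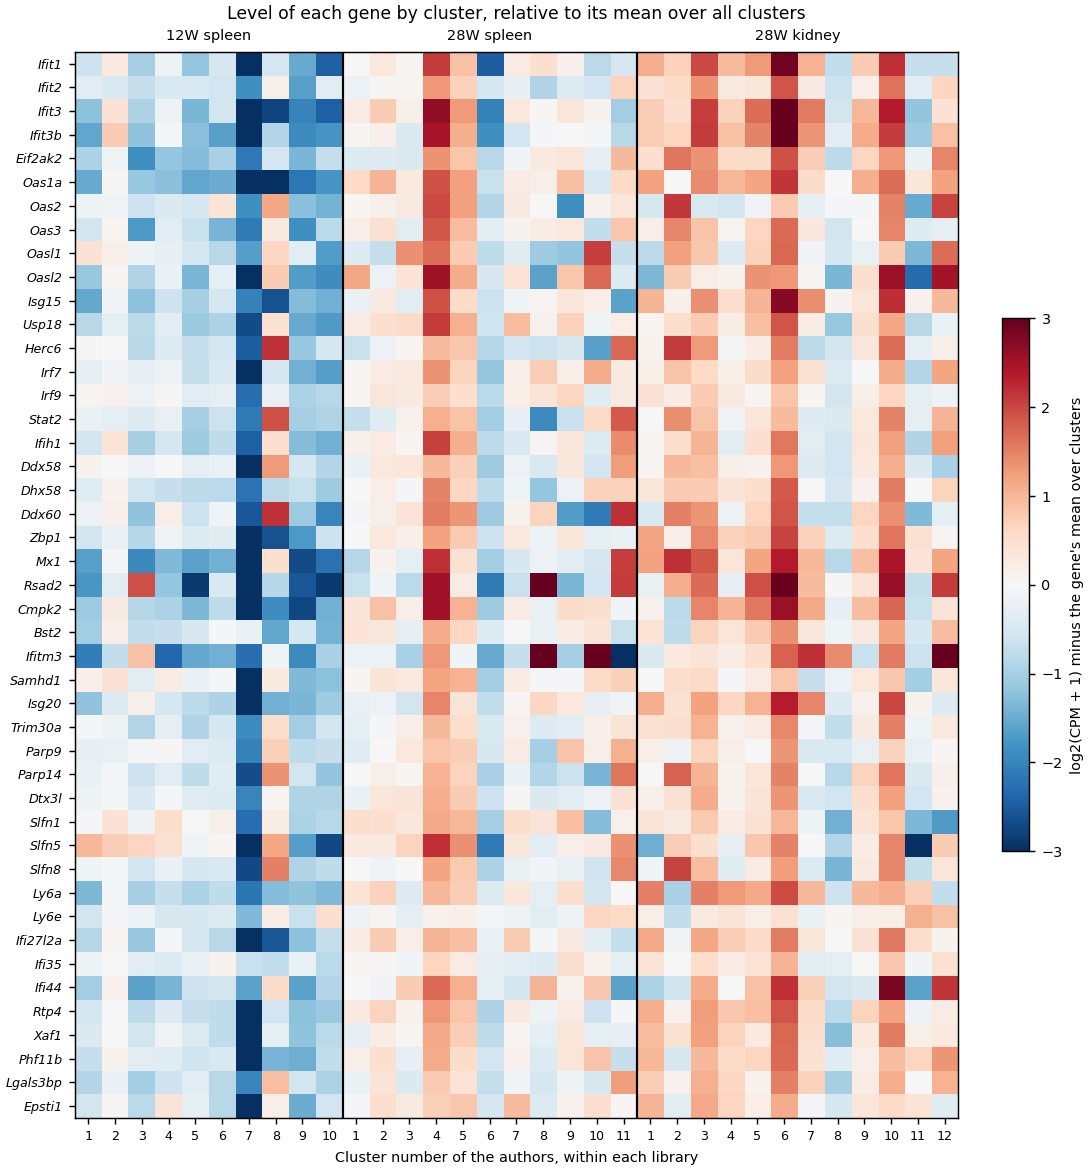
Level of each of the 45 genes (rows, in order of role) in each of the 33 clusters (columns, split by library) as log2(CPM + 1) minus the mean of that gene over all clusters, in red above and blue below. Cluster 4 of 28W spleen and clusters 6 and 10 of 28W kidney are red for nearly all genes, and cluster 7 of 12W spleen is blue. *Ifitm3* (r = 0.41 with the mean of the other genes) and *Ly6e* (0.49) depart most from the common pattern.

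The genes varied together to different extents. Over the 33 clusters, which share 3 libraries and differ in depth, the correlation of a gene with the mean of the other 44 was highest for *Ifit3b*, *Rtp4* and *Dtx3l* (r = 0.94 for each) and for *Xaf1* (0.93). It was lowest for *Ifitm3* (0.41), *Ly6e* (0.49) and *Oasl1* (0.65). Within 28W kidney alone *Ly6e* was at -0.09, and within 12W spleen *Bst2* at -0.12. Among 5836 genes outside the list with at least 20 CPM in a library, the 10 most like the mean of the list were *Iigp1* (0.95), *Tor3a* (0.91), *Trafd1* (0.89), *Gbp7* (0.88), *Gm6904* (0.87), *Igtp* (0.86), *Ifi203*, *Cpne3* and *Parp10* (0.84 each) and *Gbp3* (0.83). The correlation of the mean with *Pdcd1* was 0.64 in the 12 kidney clusters, and -0.24 and 0.06 in the 10 and 11 clusters of the spleens. With the summed proliferation markers it was negative in all 3 libraries (-0.46, -0.68 and -0.56), and so it was with the UMIs per cell (-0.71, -0.14 and -0.53), and the part of depth was not tested. These values describe the clusters and carry no test.

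The rest of the pathway was given by lists of genes outside the 45. Of 21 interferon ligand genes 7 were listed in the tables. *Ifna1*, *Ifna2*, *Ifna4*, *Ifna5* and *Ifnb1* had 0 UMIs in both spleen libraries, which allows up to 0.0864 CPM in 12W spleen and 0.0937 CPM in 28W spleen when a count of 0 is taken to allow up to 3 UMIs. In 28W kidney they had 14, 4, 27, 6 and 22 UMIs, at most 0.902 CPM (*Ifna4*). The B cell marked cluster 8 held 13 of the 14 *Ifna1* UMIs, all 27 of *Ifna4* and all of *Ifna2* and *Ifna5*, and *Ifnb1* was highest in the myeloid marked cluster 12 with 8 UMIs. The *Ifna* genes and *Ifnb1* were thus not detected in either spleen library. In kidney, *Ifna4* (0.902 CPM) and *Ifnb1* (0.735 CPM) lay above the 0.100 CPM that 3 UMIs correspond to, while *Ifna2* (0.134 CPM) was close to it. *Ifnz*, another listed ligand, had 6 UMIs at 12 weeks and 2 UMIs in each library from 28 weeks. *Ifng*, the type II ligand, was at 10.0 CPM in the 12W spleen, 63.5 in the 28W spleen and 85.0 in the kidney.

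The receptors and kinases had a median log2 ratio of 0.06 with age, against 0.93 for the 45 genes and -0.08 for all genes tested. Between organs their median was 0.35, against 0.29 for the 45 genes and 0.11 for all genes tested. Of 7 genes, 0 were at least 2-fold higher and 1 at least 2-fold lower with age, against 4.93% and 3.5% of all genes tested. The latter was *Ifngr2* (8.35 to 3.0 CPM). It was also the 1 gene of the 7 at least 2-fold higher in kidney than in 28W spleen (2.41-fold), against 15.3% of all genes tested. In kidney 91 of its 216 UMIs lay in the myeloid marked cluster 12 (87.6 CPM). In 28W spleen 22 of its 96 UMIs lay in cluster 10 with B cell and myeloid markers. The part of other cells in its values was not tested. *Ifnar1* was at 44.5, 46.7 and 57.7 CPM and *Ifnar2* at 106, 110 and 142 CPM. Of 5 negative regulators 2 were at least 2-fold higher with age, against 4.93% of all genes tested. The other 3, *Ptpn2*, *Ptpn6* and *Pias1*, were lower with age by point value (ratios 0.819, 0.693 and 0.947). The median log2 ratio of the 5 was -0.08, near that of all genes tested. The 2 higher genes were *Socs1* (29.1, 68.3 and 91.1 CPM) and *Socs3* (10.6, 58.2 and 54.6 CPM), which both restrain cytokine receptor signalling. In kidney both were highest in the B cell marked cluster 8, at 160 and 305 CPM. That cluster held 448 of the 2728 *Socs1* UMIs and 856 of the 1636 *Socs3* UMIs of the kidney. Its part in these values was not tested.

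Further interferon-induced genes outside the list were mostly higher with age. Of 27 tested, 25 were higher, with a median log2 ratio of 0.49 against -0.08 for all genes tested. At least 2-fold higher were 7 and at least 2-fold lower 0, against 4.93% and 3.5% of all genes tested. In the organ comparison 23 of 27 were higher in kidney, with a median of 0.29 against 0.11 for all genes tested. *Adar*, *Pml*, *Helz2* and *Pnpt1* were lower there by point value. The 7 genes were *Cxcl10*, *Ifitm1*, *Ifit1bl1*, *Parp12*, *Trafd1*, *Trim30d* and *Gm4951*, the last with 1 UMI in 12W spleen and 24 in 28W spleen (ratio 26.0, 4.25 to 1071). *Cxcl10*, which encodes a chemokine that draws activated T cells, was at 2.76, 12.8 and 41.5 CPM. It was the single gene of this list at least 2-fold higher in kidney, against 15.3% of all genes tested. In that library its highest cluster was the B cell marked cluster 8 (119 CPM). Of 11 genes that act upstream in sensing, 9 had enough UMIs for the age comparison. *Tlr7* (2.71 and 6.21 CPM) and *Irf5* (2.36 and 5.25 CPM) were at least 2-fold higher with age, against 4.93% of all genes tested. Their highest 28W spleen clusters were cluster 11, with over 5% mitochondrial UMIs, for *Tlr7* and the B cell marked cluster 10 for *Irf5*. Of the same 11 genes, *Tlr3*, *Tlr9* and *Irf5* were at least 2-fold higher in kidney, against 15.3% of all genes tested. These genes were highest there in the myeloid marked cluster 12, and the part of other cells in these values was not tested.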

How the data were processed

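The sorted T cells were sequenced with the 10x Genomics 5′ v2 chemistry, 4 labelled samples in each of 3 groups taken from the titles. Collagenase digestion is described for kidney and not for spleen. For each group the authors deposited 1 table with a depth-scaled mean count score of each gene in each cluster and the cluster number of every barcode. Their columns of log2 fold changes and adjusted p-values compare a cluster with the other cells of its library and were not used. The submitters' processing notes name Cell Ranger 2.1.1, R 3.6.1 and GRCm38, and cell filters and doublet removal are not given in the sources used here. The authors scaled each table on its own, so levels across libraries rest on the CPM below. All columns of cluster means were used, and 0 columns were left out.

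Each cluster column held whole multiples of a single step, and dividing by that step gave UMI counts, of which 100% lay within 0.001 of a whole number. UMIs were summed over clusters and divided by the library total, giving CPM. Genes with at least 20 UMIs in the 2 libraries together were tested against a 2-fold ratio of CPM, which stands in for a call, and medians used log2(CPM + 1), a pseudocount that understates changes of rare genes. Each ratio has an exact conditional binomial interval and each level an exact Poisson interval (95%). With 1 library per group no count model or other test could be fitted. The interval and ratio code was checked on simulated counts. A cluster was marked for another cell type where the sum of its markers reached 10 times the library's median cluster and 200 CPM.

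The 45 genes, their roles and the further gene lists were chosen with earlier results of these data known, and the study's own text names *Ifit3* and *Isg20* from these libraries, so the list is not independent of them. Named were the genes with the highest and lowest ratio in each role, the most abundant and rarest genes, near-identical pairs, pathway genes at least 2-fold different or at 0, and the 10 genes most like the list's mean. Other genes of the 45 were named for completeness. RefSeq promoter windows (GRCm38.p6) matched 34 of 45 genes, and GENCODE M21 gave the gene coordinates. A further gene of the receptor and kinase list is not reported here. Alternatives covered scaling, pseudocount, clusters left out and a core of 25 genes. Python 3.11.15, numpy 2.4.6, pandas 2.3.3 and scipy 1.17.1 were used.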

Additional observations from a re-analysis of the deposited data

How the results depend on the processing

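With 1 pooled library per group, no sample could be left out and nothing here has a replicate check. No paired analysis was possible because the tables hold no sample columns that carry the replicate numbers. Of 81 alternative values, 58 were classed as unchanged and 23 as moved, and 0 changed sign. Medians and distances between clusters had limits from counting error, but counts of genes had none. Several of the values classed as unchanged are counts that stayed at 0. For the age comparison, all 45 genes stayed higher in every alternative that kept all 45, and all 25 in the core list. The median log2 ratio, 0.93, was 1.19 for the core genes, 0.76 without the cluster of highest level in each library and 0.68 with a pseudocount of 10 CPM, which also left 7 genes at least 2-fold higher in place of 21. For the organ comparison the median, 0.29, was 0.18 with scaling by the median gene ratio, 0.12 with genes of the T cell receptor, mitochondria and ribosomal proteins left out of the total, and 0.48 without clusters marked by B cell, myeloid, tubule or erythroid genes. The median of all genes tested moved from 0.11 to 0.01 and -0.05 under the same scalings. The count at least 2-fold higher in kidney, 1, was 6 without all marked clusters, 0 in the core list and 5 without the highest clusters. The count at least 2-fold lower became 1 without B cell, myeloid or tubule marked clusters, namely *Oas2* (ratio 0.480, 0.337 to 0.672). In that setting the count at least 2-fold higher stayed at 1, but the gene was *Mx1* (2.01, 1.81 to 2.23) in place of *Ifitm3*. The highest cluster remained cluster 2, 4 and 6 in 12W spleen, 28W spleen and kidney under every alternative. Its distance to the median of the others, 0.66, 1.44 and 1.37, was 0.45, 1.15 and 1.12 with a pseudocount of 10 CPM, 0.81, 1.79 and 1.53 for core genes, and 0.72, 1.41 and 1.21 without marked clusters. On the log2 of the summed CPM it was 0.90 in 28W spleen and 1.005 in kidney, and without *Ly6a* and *Ly6e* it was 1.48 in 28W spleen. Leaving out the cluster with the most proliferation transcripts in each library, an alternative chosen after seeing the data, gave medians of 1.07 (age) and 0.22 (organ). The causes of these shifts were not tested. Depth limits statements on *Ifi44*, *Oas2* and the type I interferon ligands, which had few or 0 UMIs.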
